A study of Mus musculus with 10 samples.

Results

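The chaperonins are ATP-driven folding machines, and 10 of the 21898 genes in the deposited expression table were taken here as their subunits by name: Hspd1 and Hspe1 of the mitochondrial chaperonin, and Tcp1, Cct2, Cct3, Cct4, Cct5, Cct6a, Cct7 and Cct8 of the cytosolic ring. The choice rests on their names, though earlier results of these data were known when it was made. All 10 passed the filter on low counts, beside 11403 genes in all. The cells were CD8+ T cells selected from the spleen of wild-type (WT) mice. They were cultured for 5 days in medium with 10 mM N-acetylcysteine (NAC), a thiol compound that supplies cysteine and acts as an antioxidant, or in normal medium without it (control). Bulk RNA sequencing gave 5 NAC libraries and 5 control libraries, numbered 1 to 5 in each group. The labels give neither the age, sex or strain of the mice nor the stimulus used in culture. They also do not say that replicates are separate mice or cultures, and p-values therefore measure only how far these libraries spread.

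Newly made proteins that cannot fold by themselves are closed into the cavity of a chaperonin and released after ATP hydrolysis. In mitochondria Hspd1 encodes the subunit of the barrel and Hspe1 the small co-chaperonin that caps it, and the barrel receives imported proteins from the mitochondrial Hsp70. In the cytosol the ring, called TRiC or CCT, is built from 8 related subunits, each at a fixed place, with a built-in lid. Its best known clients are actin and tubulin, which are handed over by prefoldin, and cell cycle and signalling proteins with a WD40 fold. Activated T cells grow and divide quickly and need both machines.

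The libraries fell into sets by their number, and the 2 sets are kept apart throughout. Cd4, which marks helper T cells, was at 485 and 521 CPM (read counts scaled to a common library size, TMM-normalized) in NAC libraries 1 and 2, against 467 and 464 CPM in control libraries 1 and 2. It was at 2.23 to 2.76 CPM in NAC libraries 3 to 5, against 0.765 to 2.0 CPM in control libraries 3 to 5. Libraries 1 and 2 therefore went against their CD8+ label in both groups. Cd8a was at 238 and 270 CPM in NAC libraries 1 and 2 and 649 to 666 CPM in NAC libraries 3 to 5, against 201 and 212 CPM in control libraries 1 and 2 and 487 to 522 CPM in control libraries 3 to 5. The 5 T cell markers summed were Cd8a, Cd8b1, Cd3d, Cd3e and Cd3g, so the sum covers more than the CD8 genes. Their summed CPM was 1264 to 1350 in NAC libraries 1 and 2 and 1978 to 2104 in NAC libraries 3 to 5. It was 876 to 884 and 1520 to 1560 in the control libraries of the same numbers. Of 4 helper and regulatory markers the summed CPM was 604 to 658 in NAC libraries 1 and 2 and 31.1 to 34.9 in NAC libraries 3 to 5, against 625 to 642 and 20.4 to 23.1 in the control libraries of the same numbers. The summed CPM of 6 B cell markers was 11.9 to 13.2 in NAC libraries, against 2.32 to 8.63 in control libraries, with Ms4a1, Pax5 and Blk under 1 CPM in all 10. Of the defining markers of other cells, 7 of 8 myeloid, 3 of 4 natural killer and 4 of 4 erythroid genes stayed under 1 CPM in every library. Depth ran from 13.3 to 17.71 M reads. NAC library 1 stood apart in a summed FPKM (the read count scaled by gene length and library size) of 326742, against 284237 to 305259 in the other 9 libraries. The part of these differences in the results below was not tested, and in bulk RNA fewer cells of a type and less RNA per cell cannot be told apart.

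Over all libraries, with NAC the transcript of the mitochondrial barrel, Hspd1, fell by 30.9% and that of 1 ring subunit, Cct6a, fell by 24.6%. The other 8 genes did not pass the test over all libraries. Called means an adjusted p under 0.05 in edgeR's quasi-likelihood test with Benjamini-Hochberg adjustment over all 11403 genes, two-sided. By that rule 2 of 10 chaperonin genes were called lower and 0 higher, where 4.88% of all genes were called lower and 6.69% higher (11.6% in either direction). At an unadjusted p under 0.05, 0 members were higher and 4 lower, where 16.5% of all genes were higher and 13.5% lower. DESeq2 called 3 members lower, the third being Cct8, where 9.16% of all genes were, and DESeq2 and limma-voom called 0 higher. With a replicate block (the shared library number as a term) 3 members were called lower, the third being Cct3, where 8.22% of all genes were called lower. With the library set as a term 4 were called lower, Cct3 and Cct8 added, where 16.4% of all genes were. Hspd1 and Cct6a were also the members with all NAC libraries below all control libraries, as in 7.75% of all genes. The median log2 change of the 10 genes was -0.06 over all libraries, against 0.01 for all genes tested.

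**Figure D1:**
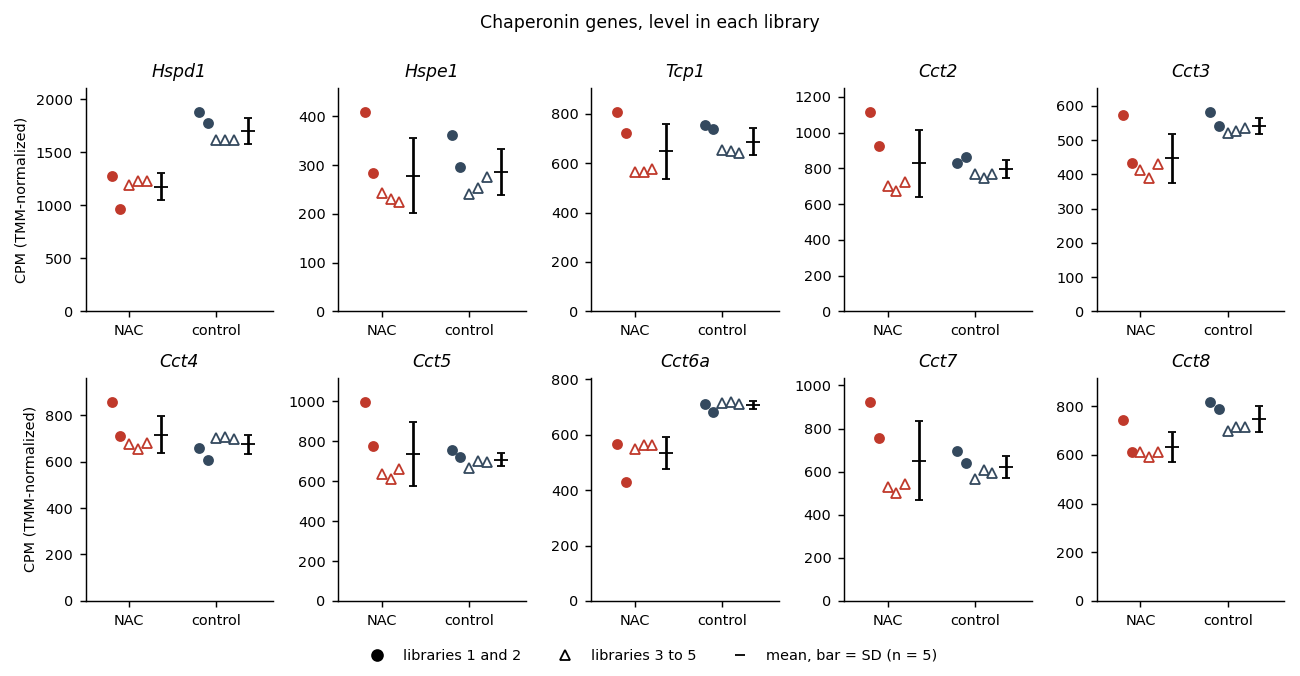
Level of each chaperonin gene in CPM (y axis, from 0), NAC libraries left and control libraries right. Filled circles are libraries 1 and 2, open triangles libraries 3 to 5, and the bar is the mean with its SD (n = 5 each). Hspd1 and Cct6a are the panels in which all NAC libraries lie below all control libraries.

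Hspd1 and Hspe1 lie head to head on mouse chromosome 1, and their shared start region is shown because only Hspd1 was called. RefSeq (GRCm38.p6) gives promoter windows, 250 bases before to 50 bases after each start, for 9 of the 10 members, 12 windows in all; Cct4 is named only. The window of Hspe1 and the second window of Hspd1 overlap by 285 bases. The 215 bases between the start of Hspe1 and that start of Hspd1 are at chr1:55087933-55088147, plus strand, which is the direction of Hspe1. Capitals mark matches to the inverted heat shock pairs GAANNTTC and TTCNNGAA, searched on both strands.
Hspd1-Hspe1 interval: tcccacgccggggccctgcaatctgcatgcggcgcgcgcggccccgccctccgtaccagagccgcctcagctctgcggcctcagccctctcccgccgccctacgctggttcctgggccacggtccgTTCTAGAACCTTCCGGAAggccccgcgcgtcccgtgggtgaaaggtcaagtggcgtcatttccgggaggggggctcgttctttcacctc
The capitals form 1 run of 18 bases with 4 alternating heat shock units, which overlap each other in 3 pair matches. Its nearest base lies 72 bases before the Hspe1 start and 127 bases before this Hspd1 start. The longer motif of 3 units, GAANNTTC followed by NNGAA, was found in windows of 2 of the 9 members, Hspd1 and Hspe1, and for 0.662% of the 27025 genes with such windows. Either pair was found for 17.0% of those genes. A match describes these letters and is not evidence of binding.

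Hspd1, the barrel subunit, had 1277, 960, 1187, 1224 and 1228 CPM in NAC libraries 1 to 5, against 1879, 1776, 1618, 1615 and 1618 CPM in control libraries 1 to 5. Every NAC library was lower than every control library, and NAC 2 was the lowest of all. The mean was 1175 ± 124 CPM in NAC libraries and 1701 ± 121 CPM in control libraries (SD, n = 5 each). The log2 change was -0.53 ± 0.10 (SE; edgeR adjusted p = 0.0093). Within the sets Hspd1 fell by 0.71 ± 0.11 on the log2 scale in libraries 1 and 2 (edgeR adjusted p = 8.4e-05). It fell by 0.41 ± 0.09 in libraries 3 to 5 (edgeR adjusted p = 0.0035). The difference between these changes, -0.29, did not pass the test (edgeR adjusted p = 0.101). It passed with library size alone at -0.32 (edgeR adjusted p = 0.042) and with no filter on low counts at -0.34 (0.034). The difference was -0.51 without NAC 1 and -0.10 without NAC 2, which each leave 1 NAC library in libraries 1 and 2.

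Hspe1, the cap, had 409, 283, 242, 230 and 225 CPM in NAC libraries 1 to 5, against 362, 297, 241, 253 and 276 CPM in control libraries 1 to 5. The groups overlapped, and in both of them libraries 1 and 2 were above libraries 3 to 5. The log2 change was -0.04 ± 0.18 over all libraries (edgeR adjusted p = 0.90). Within the sets it was 0.07 (libraries 1 and 2) and -0.14 (libraries 3 to 5), and neither was called. In a fit to libraries 3 to 5 alone the same change of -0.14 was called (edgeR adjusted p = 0.0025). Reads of Hspd1 per read of Hspe1, which asks whether barrel and cap kept their proportion, numbered 3.12, 3.39, 4.90, 5.32 and 5.46 in NAC libraries 1 to 5, against 5.18, 5.97, 6.71, 6.38 and 5.86 in control libraries 1 to 5. Within libraries 1 and 2, and within libraries 3 to 5, each NAC library had a lower ratio than each control library. Between sets the groups overlapped, since NAC 4 and NAC 5 lay above control 1. The table's own coordinates let the 2 genes overlap by 112 bases on opposite strands, and no source used here says whether reads were counted by strand. GENCODE M21 lists 5 pseudogenes named after Hspd1 and 6 named after Hspe1, so shared reads make both levels uncertain to that extent. Of the ring genes, Tcp1, Cct6a, Cct7 and Cct8 overlap an opposite-strand neighbour in the table's coordinates by 192 to 1255 bases, with Psph beside Cct6a at 57.8 to 155 CPM and Usp16 beside Cct8 at 65.2 to 116 CPM, and Tcp1 and Cct3 have 1 pseudogene each in GENCODE M21.

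**Figure D2:**
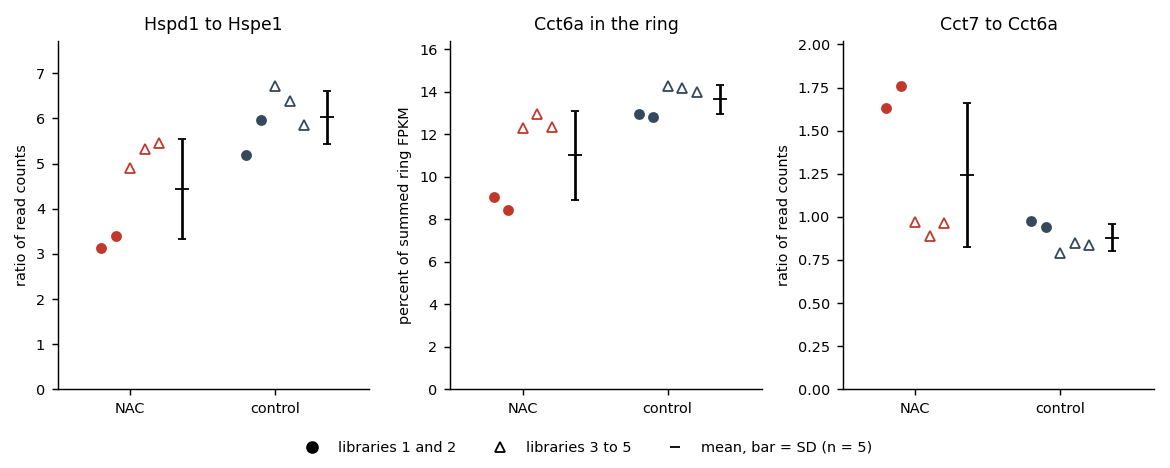
Read ratio of Hspd1 to Hspe1 (left), percent of the summed ring FPKM that came from Cct6a (middle) and read ratio of Cct7 to Cct6a (right), NAC libraries left of control libraries in each panel. Symbols are single libraries by set and the bar is the mean with its SD (n = 5 each). NAC libraries 1 and 2 lie farthest from the control libraries in all 3 panels.

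The 8 ring genes lie on separate chromosomes, Tcp1 on 17, Cct2 on 10, Cct3 on 3, Cct4 on 11, Cct5 on 15, Cct6a on 5, Cct7 on 6 and Cct8 on 16, and those called changed in both directions. In libraries 1 and 2, Cct2, Cct4, Cct5 and Cct7 rose with NAC by 20.2% to 25.7%, Cct6a fell by 28.5% and Cct8 fell by 15.8%. In libraries 3 to 5, Tcp1, Cct3, Cct6a and Cct8 each fell with NAC, which lowered them by 12.1% to 22.3%, and none rose. With Hspd1 these were 4 members higher and 3 lower in libraries 1 and 2, where 32.2% of all genes were called higher and 28.3% lower (60.5% in all). They were 0 higher and 5 lower in libraries 3 to 5, where 15.0% of all genes were called higher and 14.0% lower (29.0% in all). At an unadjusted p under 0.05 also 0 members were higher there, as with DESeq2 and limma-voom. Without NAC 1, 3 members were called higher and 4 lower in libraries 1 and 2, where 33.0% and 30.1% of all genes were. In libraries 1 and 2, 4 of the 10 members had both NAC libraries above both control libraries, where 39.2% of all genes did. A further 3 of the 10 had both below, where 34.9% of all genes did. These are the same 7 members that were called there. In libraries 3 to 5, 9 of the 10 members (all but Hspe1) had every NAC library below every control library, as 27.5% of all genes did. A fit to libraries 3 to 5 alone called 9 of 10 members lower (all but Cct4), where 25.0% of all genes were called lower. A fit to libraries 1 and 2 alone called only Hspd1 and Cct6a, both lower, where 20.1% of all genes were called lower. The member median was 0.05 in libraries 1 and 2, against 0.04 for all genes, and -0.18 in libraries 3 to 5, against 0.004 for all genes.

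**Figure D3:**
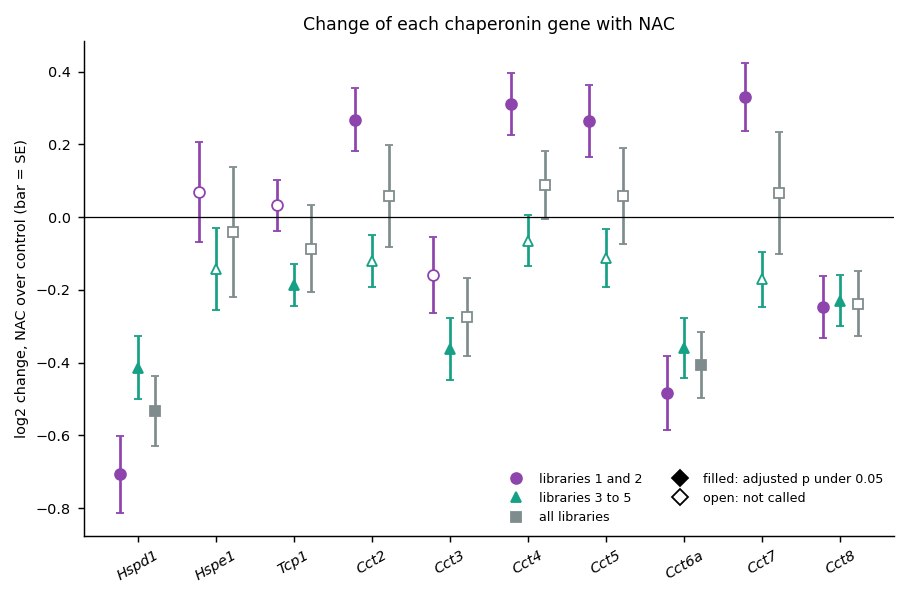
Log2 change with NAC over control for each chaperonin gene (y axis, bar = SE), in libraries 1 and 2 (circles), libraries 3 to 5 (triangles) and all libraries (squares). Filled symbols passed an adjusted p of 0.05; Cct2, Cct4, Cct5 and Cct7 lie above 0 in libraries 1 and 2 and below 0 in libraries 3 to 5.

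Cct6a was called lower over all libraries and in both sets. It had 567, 429, 549, 562 and 563 CPM in NAC libraries 1 to 5, against 711, 681, 716, 720 and 711 CPM in control libraries 1 to 5. The groups did not overlap, and the control libraries lay within 681 to 720 CPM. The log2 change was -0.41 ± 0.09 over all libraries (edgeR adjusted p = 0.020). By set it was -0.48 ± 0.10 for numbers 1 and 2 (edgeR adjusted p = 0.0011) and -0.36 ± 0.08 for numbers 3 to 5 (edgeR adjusted p = 0.0060). Without NAC 2, which leaves 1 NAC library in that set, the change in libraries 1 and 2 was -0.29. Cct6a supplied 9.05%, 8.43%, 12.3%, 13% and 12.3% of the summed FPKM of the 8 ring genes in NAC libraries 1 to 5, against 13%, 12.8%, 14.3%, 14.2% and 14.0% in control libraries 1 to 5. Its share was lower in NAC than in control libraries within each set. Its testis-type paralogue Cct6b was near the detection floor at 0.153 to 1.63 CPM.

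Cct8 had 744, 611, 613, 591 and 610 CPM in NAC libraries 1 to 5, against 819, 790, 700, 715 and 714 CPM in control libraries 1 to 5. NAC 1 overlapped the control libraries and the other 4 NAC libraries lay below them. The change was -0.25 ± 0.09 in libraries 1 and 2 (edgeR adjusted p = 0.022), against -0.23 ± 0.07 in the set of libraries 3 to 5 (edgeR adjusted p = 0.025). Over all libraries it was -0.24 ± 0.09 and missed the threshold (edgeR adjusted p = 0.104), and without NAC 1 it passed at -0.30 (edgeR adjusted p = 0.027), as it did by DESeq2 at -0.25 (adjusted p = 0.033). Leaving out NAC 1 gave -0.39 in libraries 1 and 2, and leaving out NAC 2 gave -0.11. The call in libraries 1 and 2 was lost without control 1, without control 2 and in a fit to those libraries alone. The call in libraries 3 to 5 was lost without any 1 of their 6 libraries (edgeR adjusted p = 0.067 to 0.094). With upper quartile factors in place of TMM Cct8 was called in neither set (edgeR adjusted p = 0.183 for numbers 1 and 2, 0.076 for numbers 3 to 5), and with a mean CPM of at least 10 as the filter the call in libraries 1 and 2 was lost (0.060).

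Cct3 had 572, 434, 412, 390 and 429 CPM in NAC libraries 1 to 5, against 582, 541, 521, 526 and 536 CPM in control libraries 1 to 5. Here too NAC 1 alone reached the control range. The change was -0.36 ± 0.09 in libraries 3 to 5 (edgeR adjusted p = 0.0068) and -0.16 ± 0.10 in libraries 1 and 2, which was not called (edgeR adjusted p = 0.204). The value in libraries 1 and 2 hung on 1 library, at -0.36 without NAC 1 and 0.03 without NAC 2, each with 1 NAC library left. Over all libraries the change was -0.27 ± 0.11 (edgeR adjusted p = 0.113), called with the replicate block at -0.29 (edgeR adjusted p = 0.0496) and without NAC 1 at -0.38 (edgeR adjusted p = 0.010).

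Tcp1, the founding subunit of the ring, had 807, 722, 565, 566 and 576 CPM in NAC libraries 1 to 5, against 756, 739, 653, 648 and 640 CPM in control libraries 1 to 5. The groups overlapped in libraries 1 and 2 and did not in libraries 3 to 5. The change was 0.03 ± 0.07 in libraries 1 and 2 (edgeR adjusted p = 0.707), against -0.19 ± 0.06 in the set of libraries 3 to 5 (edgeR adjusted p = 0.028). The difference between these changes, 0.22, missed the threshold (edgeR adjusted p = 0.068). The call in libraries 3 to 5 was lost with the replicate block (edgeR adjusted p = 0.053) without any 1 of their 6 libraries (0.071 to 0.107) and with upper quartile factors (0.10).

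Cct7 showed the widest gap between the sets. It had 925, 754, 531, 499 and 544 CPM in NAC libraries 1 to 5, against 696, 640, 567, 610 and 594 CPM in control libraries 1 to 5. NAC libraries 1 and 2 were the highest of all 10 and NAC libraries 3 to 5 the lowest. The change was 0.33 ± 0.09 in libraries 1 and 2 (edgeR adjusted p = 0.0080), -0.17 ± 0.08 in libraries 3 to 5 (edgeR adjusted p = 0.112), and the difference between them was 0.50 ± 0.12 (edgeR adjusted p = 0.0054). Its change in libraries 1 and 2 was 0.18 without NAC 1. It was not called without control 2 or in a fit to libraries 1 and 2 alone. Reads of Cct7 per read of Cct6a numbered 1.63, 1.76, 0.968, 0.888 and 0.966 in NAC libraries 1 to 5, against 0.979, 0.940, 0.792, 0.848 and 0.836 in control libraries 1 to 5.

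Cct2, Cct4 and Cct5 followed the same course. Cct2 had 1116, 923, 703, 674 and 725 CPM in NAC libraries 1 to 5, against 829, 864, 771, 748 and 767 CPM in control libraries 1 to 5. Cct4 had 858, 711, 676, 655 and 682 CPM in NAC libraries 1 to 5, against 657, 607, 701, 705 and 699 CPM in control libraries 1 to 5. Cct5 had 998, 778, 636, 610 and 660 CPM in NAC libraries 1 to 5, against 756, 722, 666, 701 and 695 CPM in control libraries 1 to 5. In each of these ring subunits NAC libraries 1 and 2 lay above both control libraries of their set, and NAC libraries 3 to 5 lay below all 3 of theirs. The changes in libraries 1 and 2 were 0.27 ± 0.09 for Cct2 (edgeR adjusted p = 0.017), 0.31 ± 0.09 for Cct4 (0.0067) and 0.26 ± 0.10 for Cct5 (0.033). In libraries 3 to 5 they were -0.12, -0.06 and -0.11 in the same order, none called in the joint fit. That fit shares 1 spread between the sets, though the NAC SD of Cct2 was 137 CPM in libraries 1 and 2 and 26 CPM in libraries 3 to 5. In a fit to libraries 1 and 2 alone, Cct2, Cct4 and Cct5 were not called. The difference between the sets was called for Cct2 at 0.39 (edgeR adjusted p = 0.014), Cct4 at 0.38 (0.016) and Cct5 at 0.38 (0.030), so that with Cct7 4 of 10 members differed between the sets, all with the higher change in libraries 1 and 2, where 21.9% of all genes did and 20.0% differed the other way (41.9% in all). By DESeq2 the difference was called for 5 members, all in the same direction, beside 2371 of 11403 genes. Without NAC 1, which leaves 1 NAC library in that set, the changes in libraries 1 and 2 were 0.13 for Cct2, 0.18 for Cct4 and 0.08 for Cct5. The differences between sets were then 0.25, 0.24 and 0.19. Without NAC 2, the change of Cct5 in libraries 1 and 2 was 0.43. Both calls were lost for Cct2 without control 1 (edgeR adjusted p = 0.10 and 0.065) and for Cct4 without control 2 (0.069 and 0.080). For Cct5 the call in libraries 1 and 2 was also lost without control 1, 2 or 3 (0.066 to 0.152) and with no filter on low counts (0.051), and the difference without any 1 control library, NAC 3 or NAC 4 (0.057 to 0.108).

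The start regions of Cct6a and Cct7 are shown because these 2 ring subunits moved apart most in libraries 1 and 2. The 250 bases before each start are given from RefSeq (GRCm38.p6), Cct6a at chr5:129787106-129787355 and Cct7 at chr6:85451255-85451504, both on the plus strand. Capitals mark the CCAAT box or its reverse complement ATTGG.
Cct6a: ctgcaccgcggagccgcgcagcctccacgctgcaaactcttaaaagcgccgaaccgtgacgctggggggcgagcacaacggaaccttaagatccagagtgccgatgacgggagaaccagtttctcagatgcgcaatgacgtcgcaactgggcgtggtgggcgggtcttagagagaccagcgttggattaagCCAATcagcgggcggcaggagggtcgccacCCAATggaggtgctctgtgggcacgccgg
Cct7: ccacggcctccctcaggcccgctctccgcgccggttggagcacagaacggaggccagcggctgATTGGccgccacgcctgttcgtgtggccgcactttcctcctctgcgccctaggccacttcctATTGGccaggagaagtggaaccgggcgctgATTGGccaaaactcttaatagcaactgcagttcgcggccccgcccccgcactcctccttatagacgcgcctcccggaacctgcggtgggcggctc
Cct6a has 2 copies, whose first bases are at -59 and -29 from the start, and Cct7 has 3 copies, at -187, -125 and -95. The CCAAT box was in windows of 5 of the 9 members and of 41.1% of all genes with windows. A heat shock pair was in windows of 5 of the 9 members and of 17.0% of all genes with windows. The 5 were Hspd1 and Hspe1, which share the same run of 18 bases, and Cct6a, Cct2 and Cct5. In Cct6a the pair begins at base 25 counted from the start, outside the stretch shown, in Cct2 at -42 and in Cct5 at -34. Of these, Hspd1 and Cct6a were called lower and Cct2 and Cct5 higher in libraries 1 and 2. A link between the pair and these changes was not tested. The E-box CACGTG was in a window of 1 member, Hspd1, and of 8.09% of all genes with windows.

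Levels of different genes can be set side by side only per length, on the FPKM scale. In control libraries Hspd1 was highest at 637 ± 54 FPKM (SD, n = 5 here and below), followed by Cct2 at 308 ± 23, Cct5 at 253 ± 15, Cct8 at 239 ± 20, Cct6a at 200 ± 2.7, Hspe1 at 192 ± 34, Cct4 at 158 ± 7.8, Tcp1 at 135 ± 13, Cct7 at 90.7 ± 8.2 and Cct3 at 84.0 ± 4.6. Between neighbours in that order the control libraries did not overlap for Hspd1 over Cct2, Cct2 over Cct5, Cct8 over Cct6a and Tcp1 over Cct7, and overlapped for the other 5. In NAC libraries Hspd1 was at 450 ± 40 FPKM, Cct2 at 328 ± 74, Cct6a at 154 ± 15 and Cct3 at 71 ± 11. The ranges of every neighbouring pair overlapped across these libraries. Within each NAC library, though, Hspd1 was above Cct2, Cct2 above Cct5, Cct5 above Cct8, Tcp1 above Cct7 and Cct7 above Cct3. Within each control library Cct5 was also above Cct8 and Cct7 above Cct3, though their ranges overlapped. The order within the ring leaned on the gene lengths in the deposited table. The control mean of the highest ring gene was 3.67 times that of the lowest with those lengths and 1.6 times with the length of the longest coding transcript, an alternative chosen after seeing the data, for which Cct6a has no value. With transcript lengths Cct7 and Cct3 were at 252 ± 23 and 271 ± 15 in control libraries.

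**Figure D4:**
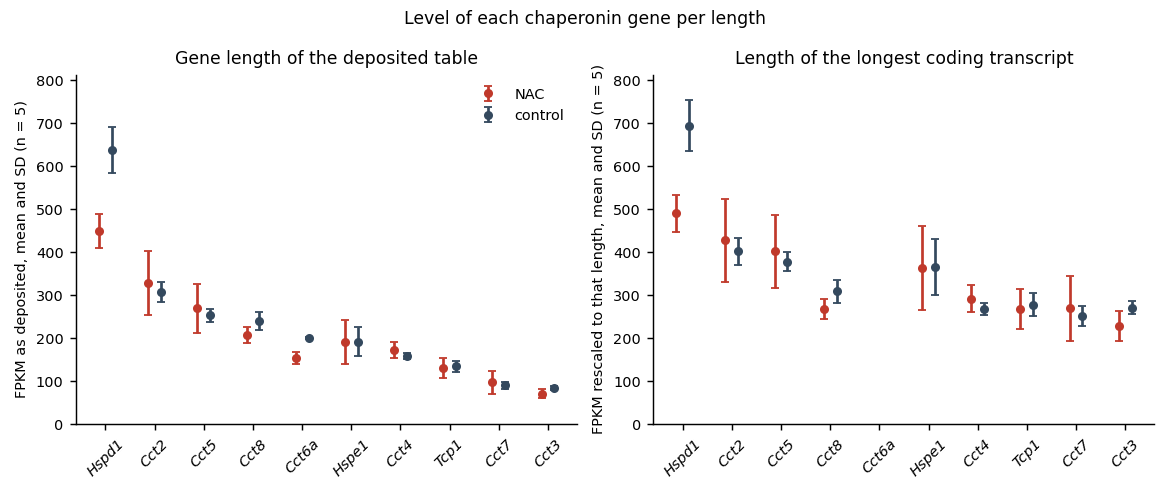
Mean level of each chaperonin gene per length with its SD (n = 5 each), NAC left of control for each gene, with the gene length of the deposited table (left panel) and the longest coding transcript (right panel, Cct6a without a value). Hspd1 leads in both panels, and the ring genes lie closer together in the right panel.

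The 10 genes together took 0.607% to 0.820% of all reads in NAC libraries, against 0.703% to 0.805% in control libraries. After TMM normalization their sum was 8271 and 6604 CPM in NAC libraries 1 and 2, against 8048 and 7658 CPM in control libraries 1 and 2, and 6000 to 6243 CPM in NAC libraries 3 to 5, against 7154 to 7250 CPM in control libraries 3 to 5. Hspe1, Tcp1, Cct2, Cct5 and Cct7 were higher in all 4 libraries numbered 1 and 2 than in all 6 numbered 3 to 5, as 12.2% of all genes were. Around the mean centred log2 profile of the 10 members, Hspd1 and Cct6a deviated most, with a root mean square difference over 10 libraries of 0.248 and 0.222. Tcp1, Cct8 and Cct3 deviated least at 0.073, 0.073 and 0.075. Of 8608 other genes with a mean of at least 10 CPM, the nearest to that mean profile were Orc6 (0.029), Bzw2 (0.036), Atp5pb (0.037), Hat1 (0.037) and Ruvbl1 (0.041), which is a description of these 10 libraries.

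Most of the 18 known clients of the ring listed here fell in libraries 3 to 5, and calls went both ways in libraries 1 and 2. In libraries 3 to 5, 12 of 18 clients fell, where 14.0% of all genes were called lower, and 0 rose (also 0 by DESeq2, by limma-voom and at an unadjusted p under 0.05), with a median log2 change of -0.31 against 0.004 for all genes. They were the actins Actb and Actg1, the tubulins Tuba1a, Tuba1b, Tuba1c, Tuba4a, Tubb2a, Tubb4b, Tubb5 and Tubg1, and Cdc20 and Fzr1, which activate the anaphase-promoting complex. Of the same clients 6 rose in libraries 1 and 2 (Tubb2a, Tubb2b, Tubg1, Gnb2, Cdc20 and Fzr1) and 2 fell there (Gnb1 and Mlst8), where 32.2% of all genes were called higher and 28.3% lower. The median was 0.16, against 0.04 for all genes. Over all libraries edgeR called 0 of 18, with 2 lower at an unadjusted p under 0.05, and DESeq2 called 1 and limma-voom 0. The difference between the sets was called for 13 with the higher change in libraries 1 and 2 and for 1, Mlst8, the other way, where 21.9% and 20.0% of all genes were called. Actb was at 4081 and 3405 CPM in NAC libraries 1 and 2 and 2660 to 2845 CPM in NAC libraries 3 to 5, against 4323 and 4367 CPM and 3385 to 3480 CPM in the control libraries of the same numbers. Actg1 changed by 0.08 in libraries 1 and 2 (edgeR adjusted p = 0.386) and by -0.47 in libraries 3 to 5 (edgeR adjusted p = 0.0002), a difference of 0.55 (edgeR adjusted p = 0.00094).

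Prefoldin and the ring cofactors, 9 genes, had 0 calls over all libraries by edgeR, DESeq2 and limma-voom, with 1 higher and 1 lower at an unadjusted p under 0.05. With NAC 4 of them rose in libraries 1 and 2: Vbp1 and Pfdn5 of prefoldin, and the phosducin-like genes Pdcl and Pdcl3, beside 32.2% of all genes. In libraries 3 to 5 only Pfdn6, another prefoldin subunit, was called, and it fell, beside 14.0% of all genes. Pfdn5 was at 166 and 124 CPM in NAC libraries 1 and 2, against 91.5 and 90.9 CPM in control libraries 1 and 2, a log2 change of 0.67 (edgeR adjusted p = 0.00015), while in libraries 3 to 5 it changed by 0.00 (edgeR adjusted p = 0.995). Its difference between the sets was 0.67 (edgeR adjusted p = 0.0021), and that of Vbp1 was 0.28 (edgeR adjusted p = 0.034). The call of Vbp1 in libraries 1 and 2 was lost in 14 alternatives (adjusted p = 0.051 to 0.296 across them), and its difference in 7 (0.057 to 0.138). Of the 5 tubulin cofactors, which assemble the tubulin dimer after the ring releases its subunits, only Tbcb was called. It was higher in libraries 1 and 2 at 0.66 (edgeR adjusted p = 0.00049), beside 32.2% of all genes. It was lower in libraries 3 to 5 at -0.41 (edgeR adjusted p = 0.0095), beside 14.0% of all genes. The second call was lost without control 4 or NAC 5 (edgeR adjusted p = 0.051 and 0.0505). Tbcd and Tbce changed by -0.01 and 0.01 over all libraries, neither called and both of no fixed sign across alternatives. Among the 4 tested chaperonin relatives, Cct6b was called higher in libraries 1 and 2, at under 2 CPM, beside 32.2% of all genes. Bbs12, linked in humans to Bardet-Biedl syndrome, was called lower in libraries 3 to 5 at -0.38 (edgeR adjusted p = 0.0042), beside 14.0% of all genes. Bbs10 was not called at 2.07 to 4.22 CPM.

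Of 14 other mitochondrial chaperones and proteases, 0 were called over all libraries by edgeR, DESeq2 or limma-voom, and 1 was lower at an unadjusted p under 0.05. By set, 1 rose (Hscb) and 1 fell (Spg7) in libraries 3 to 5, where 15.0% of all genes were called higher and 14.0% lower. Hscb, Clpb, Clpx, Lonp1 and Spg7 rose in libraries 1 and 2, and Hspa9, Clpp and Yme1l1 fell, so that 8 of 14 were called where 60.5% of all genes were. Hspa9, the mitochondrial Hsp70 that passes imported proteins to the barrel, was at 833 and 654 CPM in NAC libraries 1 and 2, against 1103 and 1065 CPM in control libraries 1 and 2, a log2 change of -0.54 (edgeR adjusted p = 0.00029). It was at 1264 to 1278 CPM in NAC libraries 3 to 5, against 1430 to 1445 CPM in control libraries 3 to 5, a change of -0.18 that was not called (edgeR adjusted p = 0.101). The groups were separate in each set. Lonp1, the matrix protease, was at 294 and 242 CPM in NAC libraries 1 and 2, against 222 and 217 CPM in control libraries 1 and 2, and at 697 to 719 CPM in NAC libraries 3 to 5, against 735 to 763 CPM in control libraries 3 to 5. Its log2 change in libraries 1 and 2 was 0.29, and 0.15 without NAC 1. That call was lost without control 2 (edgeR adjusted p = 0.055) and in a fit to those libraries alone (0.138).

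Part of the heat shock list, most of whose genes are known targets of the heat shock factor Hsf1, also fell with NAC. Of 15 tested genes, 2 fell over all libraries (4 by DESeq2, 2 by limma-voom, 5 at an unadjusted p under 0.05) and 0 rose by any of these: the Hsp90 gene Hsp90aa1, at 997 to 1358 CPM in NAC libraries against 1388 to 1780 CPM in control libraries (log2 change -0.48, edgeR adjusted p = 0.028), and the Hsp70 co-chaperone Dnaja1, at 252 to 301 CPM in NAC libraries against 317 to 382 CPM in control libraries (-0.37, edgeR adjusted p = 0.024). The groups did not overlap in either gene. Of all genes, 4.88% were called lower over all libraries. The call of Hsp90aa1 was lost with upper quartile factors and without control 1 or 2 or any 1 of NAC 2 to 5 (edgeR adjusted p = 0.050 to 0.069), and that of Dnaja1 with upper quartile factors and without control 1 or 2 or NAC 2 or 3 (0.0505 to 0.062). A total of 7 fell in libraries 1 and 2 (Hspa8, Hsp90aa1, Hsph1, Dnaja1, Dnajb1, Chordc1 and Ahsa1) and Bag3 rose, where 28.3% of all genes were called lower and 32.2% higher. In libraries 3 to 5, 8 fell (Hspa4, Hsp90aa1, Hsp90ab1, Hsph1, Dnaja1, Chordc1, Ahsa1 and Stip1), where 14.0% of all genes did, and 0 rose, as at an unadjusted p under 0.05 and with DESeq2 and limma-voom. The list's median log2 change was -0.18 over all libraries, -0.15 in libraries 1 and 2 and -0.17 in libraries 3 to 5, against 0.01, 0.04 and 0.004 for all genes tested. Hsf1 itself changed by -0.07 and Hsf2 by -0.13 over all libraries, neither called.

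**Figure D5:**
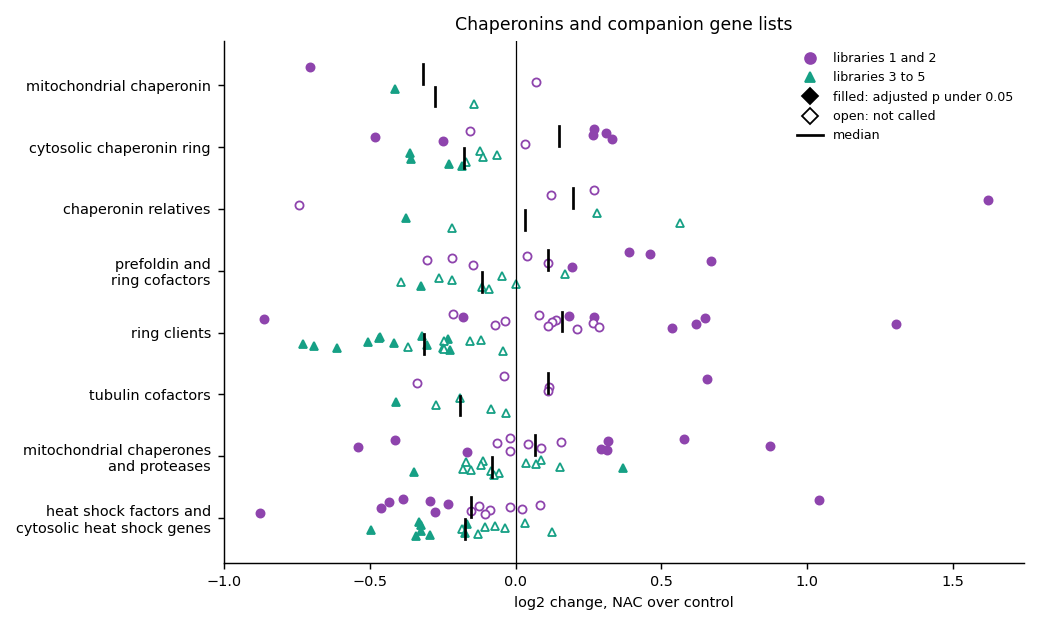
Log2 change with NAC over control (x axis) of each tested gene in the chaperonins and 6 companion lists (y axis), in libraries 1 and 2 (circles) and libraries 3 to 5 (triangles). Filled symbols passed an adjusted p of 0.05 and black bars are list medians; ring clients have a median of 0.16 in libraries 1 and 2 and -0.31 in libraries 3 to 5.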

How the data were processed

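Each sequencing library was built from total RNA (1.3 µg), per the labels' protocols. The authors deposited whole-number read counts and FPKM values for every gene and library, per the file headers, together with a gene length in bases. The deposited FPKM equals the count divided by that length and the library total, within 0.0012% for counts of 50 or more. The submitters' processing notes name GRCm38 and mm10; no source used here names the aligner, the counter or the strand setting. Start and end match GENCODE M21 for 511 of 21794 genes, so positions from the table are given by chromosome only. A symbol was shared with another row in 22 rows.

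Counts were tested as deposited in R 4.3.3 with edgeR 4.0.16 (filterByExpr, TMM, robust glmQLFit, glmQLFTest), without a covariate, and by set as contrasts in a joint fit of the 4 combinations of group and set. Standard errors are the size of the log2 change over the root of F. CPM values are TMM-normalized; FPKM values were not tested. The 10 libraries held 13.3 to 17.71 M reads. How far library spread or counting error sets the precision for the members was not tested. Hspd1 had an SD of 224 CPM in NAC libraries 1 and 2. In control libraries 3 to 5 its SD was 1.4 CPM at a mean of 1617 CPM, where counting error is not negligible. Counting error also matters for genes near the floor, such as Cct6b with at most 25 reads in a library. The common coefficient of variation was 26.6% without a covariate and 7.43% with set terms.

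Members, lists and sets were chosen with earlier results of these data known. Named beside the members were, per companion list, up to 2 called genes in each direction over all libraries or else the 2 most abundant tested genes, the 5 genes nearest the member mean, Cd4 and Cd8a. Other list genes are named in counts of calls, and Hsf1, Hsf2, Cct6b and Tbcb were singled out after their values were seen. Same-numbered libraries deviated together from their group means (r 0.485 to 0.596). Other numbers of the same set did so about as much (0.468 to 0.583), and numbers of different sets gave -0.568 to -0.454. Only 3 of the 10 libraries correlated best with their own number. These values follow the library set and do not show pairing by number. Alternatives were other scalings and filters, DESeq2 1.42.0, limma-voom (limma 3.58.1), no robust estimation, a replicate block, set terms and leaving out each library. The pipeline was tested on simulated counts. One listed B cell marker is not reported here and was left out of its sum.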

Additional observations from a re-analysis of the deposited data

Results flagged for a closer look

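Among 66 groups of 5 libraries, 10 held a library that stood apart. Its gap to its nearest neighbour exceeded 0.71 of the group's range, the critical value for 5. That value gives about 1 in 20 for libraries drawn alike. Here each group mixes the 2 sets and the groups share libraries, so 10 of 66 cannot be set against that rate. NAC 1 was high for Cct3 (572 CPM), Cct4 (858 CPM), Cct8 (744 CPM), Dnaja1 (301 CPM) and Atp5pb (387 CPM), for the sum of the 10 chaperonin genes (8271 CPM) and for the summed FPKM of all genes (326742). NAC 2 was low for Hspd1 (960 CPM) and Cct6a (429 CPM), and control 2 was low for Cct6a (681 CPM).

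The log2 change with NAC in libraries 1 and 2 minus that in libraries 3 to 5 passed the edgeR interaction test for 4 chaperonin genes. It was 0.39 for Cct2, 0.38 for Cct4, 0.38 for Cct5 and 0.50 for Cct7. Among other genes described with their values it also passed, at 1.07 for Tbcb, -0.74 for Cd4, 0.50 for Bbs12, 0.28 for Vbp1, 0.67 for Pfdn5, 0.55 for Actg1, -0.36 for Hspa9 and 0.38 for Lonp1. The difference was not called for Hspa9 in 9 alternatives (0.054 to 0.104) and was -0.20 without NAC 2, and for Lonp1 it was not called without control 2 (0.055) and was 0.24 without NAC 1. The sets also differ in Cd4 and Cd8a, and the part of that in these differences was not tested.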

How the results depend on the processing

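Hspd1 and Cct6a kept their call and direction in all 20 alternatives, over all libraries and in each set. The count of all genes called over all libraries, 1319, was 2287 with the DESeq2 Wald test, 2254 with the replicate block and 4155 with the set as a term, which also called 4 members. With the replicate block, which treats libraries of the same number as pairs, Cct3 over all libraries and Tcp1 in libraries 3 to 5 changed their call. No other member did. A fit to libraries 1 and 2 alone called 2 members and 5139 genes. A fit to libraries 3 to 5 alone called 9 members and 5557 genes. Upper quartile factors called 3 members and 3234 of 11403 genes in libraries 3 to 5. They moved the median of all genes in libraries 1 and 2 to 0.15. The companion lists held 2 called genes, but 0 with upper quartile factors, 5 with DESeq2, 5 with the replicate block and 14 with the set as a term. The ring's ratio of highest to lowest level was 1.6 with transcript lengths.

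Leaving out 1 library gave 631 to 1405 genes over all libraries, 5641 to 7623 in libraries 1 and 2, 2189 to 5373 in libraries 3 to 5 and 3625 to 6562 for the difference. Members called were 2 to 4, 3 to 8, 3 to 8 and 2 to 8 in the same order, and companion genes 0 to 7. Where 1 library is left out in libraries 1 and 2, the lone one is assumed to vary like the rest.

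Some changes that were not called under the settings of the report turned sign. Over all libraries these were Hspe1 with upper quartile factors (0.0354), Vbp1 (-0.00681) and Tbce (-0.00764) without a filter, Tbcd with library size (0.0266), upper quartile factors (0.0597) and a mean CPM of at least 10 (0.0249), and Lonp1 with the same 3 (0.0237, 0.0421 and 0.0111), limma-voom (0.06), the replicate block (0.0624) and set terms (0.0648). Tcp1 in libraries 1 and 2 turned without a filter (-0.0164), and the Cct8 difference with upper quartile factors (0.0419) and a mean CPM of at least 10 (0.019). With 1 library left out, the log2 change over all libraries ran from -0.0719 to 0.12 for Cct2, -0.0745 to 0.12 for Cct5, -0.0929 to 0.15 for Cct7, -0.22 to 0.0605 for Hspe1, -0.22 to 0.17 for Lonp1, -0.0482 to 0.0261 for Tbcd, -0.0903 to 0.11 for Tbce and -0.0308 to 0.0532 for Vbp1. In libraries 1 and 2 it ran from -0.36 to 0.0282 for Cct3, -0.21 to 0.31 for Hspe1 and -0.0423 to 0.11 for Tcp1. The difference ran from -0.00025 to 0.39 for Cct3, -0.33 to 0.0648 for Cct6a, -0.16 to 0.12 for Cct8 and -0.0692 to 0.45 for Hspe1. Some of these ends rest on 1 NAC library in libraries 1 and 2. The ends that turned sign without NAC 2 were those of Cct3 in libraries 1 and 2 and of the differences of Cct6a and Cct8. Without NAC 1 they were those of Tcp1 and Hspe1 in libraries 1 and 2 and of the differences of Cct3 and Hspe1. The cause was not tested.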
